A study of Homo sapiens with 18 samples.

Results

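The integrin subunits outside hemidesmosomes measured here were 9 genes of the 41120 gene symbols in the deposited count table, taken by symbol: the alpha subunits ITGA2, ITGA3, ITGA5 and ITGAV, and the beta subunits ITGB1, ITGB3, ITGB5, ITGB6 and ITGB8. The data were 3′ messenger RNA tags from 18 libraries of FADU-hfm (FaDu, HPV-negative) and SCC154-hfm (SCC154, HPV-positive), both established human lines from squamous carcinomas of the head and neck. Every library, controls included, came from cells transduced with a hypoxia-fate mapping reporter, in which DsRed-positive cells are non-hypoxic and GFP-positive cells are post-hypoxic. The cells had grown as spheroids, were freed with trypsin, sorted by fluorescence, and then cultured and passaged before RNA was taken. The groups were non-hypoxic FaDu (n = 4, replicates 1 to 4), post-hypoxic FaDu (n = 5, replicates 1 to 5), non-hypoxic SCC154 (n = 5, replicates 1 to 5) and post-hypoxic SCC154 (n = 4, replicates 2 to 5). Each HPV status was represented by 1 line, so virus and line cannot be told apart, and the labels do not say whether the transduced cells were clones. The comparisons asked whether integrin transcripts still differed between cells with and without a past of low oxygen after both had been returned to culture, and whether they differed between the lines.

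Integrins are surface receptors made of 1 alpha and 1 beta subunit, which bind the matrix outside the cell and, through talin and kindlin, the actin skeleton inside it. The beta1 subunit (ITGB1) pairs with alpha2 (ITGA2) to bind collagen, with alpha3 (ITGA3) to bind laminins of the basement membrane, and with alpha5 (ITGA5) to bind fibronectin. The alphaV subunit (ITGAV) pairs with beta1, beta3, beta5, beta6 or beta8, and the resulting receptors recognise the RGD motif of matrix proteins. The pairs of alphaV with beta6 and with beta8 also bind latent TGF-beta and release its active form. Beta6 is largely an epithelial subunit, low in resting epithelium and raised in wounds and many carcinomas.

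Library totals ran from 1654719 to 2503573 counts, so 1 CPM (a count scaled to library size, here after trimmed-mean, TMM, scaling) stood for 1.68 to 2.44 counts. All 9 epithelial markers were detected, with a summed level between 1514 and 2488 CPM per library, while the summed markers of fibroblasts, endothelial cells and immune cells did not pass 5.18 CPM in any library. Of these, 3 to 6 of 7 fibroblast, 3 to 5 of 7 endothelial and 3 to 6 of 8 immune markers were at 0 in all libraries of a group, among them LUM, PDGFRA, KDR, CLDN5 and MS4A1 in all 4 groups. A principal component over all genes, with group means taken out, placed non-hypoxic FaDu replicate 1 and post-hypoxic SCC154 replicate 3 at one end and the 4 libraries numbered 4 at the other, and non-hypoxic SCC154 replicate 1 stood apart on the next component. Where leaving out a library changed the call of a named gene, this is stated, with values for some of the libraries.

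The start of a gene is shown for 3 members on which the results turn: ITGA2 was among the alpha subunits that differed between the lines, and ITGB1 and ITGB6 were the members nearest the threshold within a line. The letters, from RefSeq (GRCh38.p14), run 5′ to 3′ on the gene's strand within the 250 bases before the first listed start, less any bases that GENCODE v29 places in an exon of the gene. Capitals mark the core of the hypoxia response element (ACGTG or GCGTG, either strand), which only the ITGA2 window holds.
ITGA2 (chr5:52989102-52989325, plus strand): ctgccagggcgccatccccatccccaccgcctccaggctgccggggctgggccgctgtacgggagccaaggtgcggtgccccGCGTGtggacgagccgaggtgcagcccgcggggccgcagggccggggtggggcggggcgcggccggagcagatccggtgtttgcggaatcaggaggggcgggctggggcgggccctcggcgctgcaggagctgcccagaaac
ITGB1 (chr10:32958233-32958480, minus strand): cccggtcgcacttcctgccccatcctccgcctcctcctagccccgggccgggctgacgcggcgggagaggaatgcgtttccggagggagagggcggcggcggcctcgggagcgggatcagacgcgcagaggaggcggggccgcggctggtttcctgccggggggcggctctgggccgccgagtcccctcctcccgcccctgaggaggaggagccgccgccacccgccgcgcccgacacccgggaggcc
ITGB6 (chr2:160200314-160200522, minus strand): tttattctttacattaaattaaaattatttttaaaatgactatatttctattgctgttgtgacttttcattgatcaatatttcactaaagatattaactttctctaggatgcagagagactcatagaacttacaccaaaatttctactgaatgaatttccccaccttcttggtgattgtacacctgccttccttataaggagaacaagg

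RefSeq windows of 250 bases were matched for 7 of the 9 members, all but ITGA3 and ITGB3. They precede a RefSeq start, which can differ from the GENCODE start. The windows of ITGA2, ITGA5, ITGB6 and ITGB8 reach past the GENCODE start of the gene, and that of ITGB1 lies inside its span. All windows are counted whole here, with bases left out of the sequences printed above. They differed widely in base composition: G and C made up 78.4% of the ITGB1 window, 76.4% of ITGA2, 71.2% of ITGB8, 70.8% of ITGAV, 70.0% of ITGA5 and 52.8% of ITGB5, but 30.0% of the ITGB6 window, beside a median of 58.0% over the promoters of 27305 genes. The GC box GGGCGG, sought on both strands, occurred 4 times in the ITGA2 window and 3 times in that of ITGB1. It was at 2 places each in the first windows of ITGB5 and ITGB8, and once in that of ITGA5. It was in 42.3% of all promoters and in neither the ITGAV nor the ITGB6 window. The hypoxia core was in 43.1% of all promoters and in the first windows of ITGA2, ITGA5 and ITGB8. The TEAD motif CATTCC (11.9% of all promoters) was found in the first windows of ITGA5 and ITGB1, and the AP-1 motif TGANTCA (6.6%) in no first window of a member. In ITGA5 both the TEAD match and the hypoxia core lie past the GENCODE start. None of these motifs contains another, and a match describes letters only.

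Most members differed between the lines, as did 68.9% of all tested genes in non-hypoxic cells. They differed little between the sorted fractions of a line. The laminin, collagen and RGD-binding alpha subunits ITGA3, ITGA2 and ITGAV were higher in SCC154, the alphaV partners ITGB5 and ITGB6 were higher in FaDu, and ITGB1 and ITGB8 were near the same level in the non-hypoxic cells of both. Within SCC154, ITGB1 had the lower values in post-hypoxic cells and ITGB6 mostly the higher ones. Neither passed the threshold in the main fit, and both did in some other settings. ITGA5 was close to the limit of detection and ITGB3 was essentially undetected, so 7 of the 9 members could be tested. In RNA of whole populations, fewer cells with a transcript and less of it per cell cannot be told apart.

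**Figure D1:**
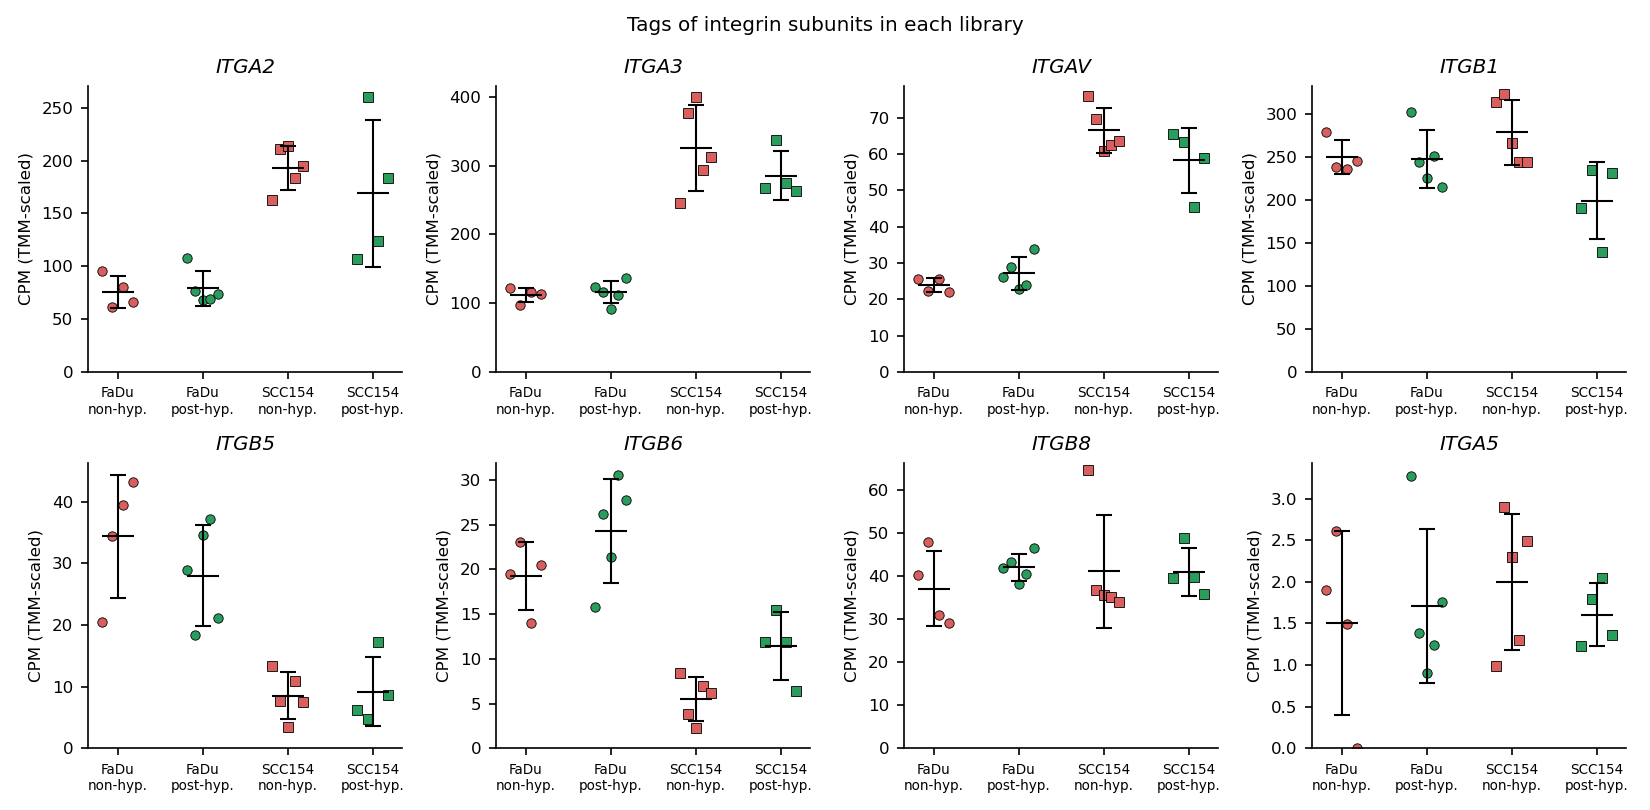
Level of 8 integrin subunits in each library (y axis, CPM over TMM-scaled library sizes; each panel has its own scale from 0) for the 4 groups on the x axis; red marks non-hypoxic and green post-hypoxic libraries, circles FaDu and squares SCC154, with the group mean and SD as bars. ITGA2, ITGA3 and ITGAV sit higher in SCC154, ITGB5 and ITGB6 higher in FaDu; the ITGA5 panel rests on 0 to 6 counts per library, and ITGB3 (1 count in all) is not drawn.

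ITGA2 lies on chromosome 5, from 52989326 to 53094779 (GENCODE v29, GRCh38, plus strand), and encodes the collagen-binding alpha2 chain. Its level was 95.6, 61.8, 80.4 and 65.8 CPM in non-hypoxic FaDu replicates 1 to 4, and 108, 76.4, 68.1, 69.3 and 73.5 CPM in post-hypoxic FaDu replicates 1 to 5. In non-hypoxic SCC154 replicates 1 to 5 it was 163, 211, 214, 184 and 195 CPM, and in post-hypoxic SCC154 replicates 2 to 5 it was 107, 261, 124 and 184 CPM. Post-hypoxic SCC154 thus spread widely: its replicate 2 fell just below the highest post-hypoxic FaDu library, and its replicate 3 was above every other library. In non-hypoxic cells the lines did not overlap, with means of 75.9 ± 15.3 (SD, n = 4) in FaDu and 193 ± 20.9 CPM (SD, n = 5) in SCC154, a 2.55-fold difference (log2 fold change 1.35, SE 0.20, adjusted p = 3.54e-06 by edgeR).

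ITGA3 lies on chromosome 17, from 50055968 to 50090481 (plus strand), and encodes the alpha3 chain of the main laminin-332 receptor outside hemidesmosomes. It was measured at 122, 97.6, 116 and 114 CPM in non-hypoxic FaDu and at 123, 116, 92.2, 111 and 136 CPM in post-hypoxic FaDu. The corresponding levels in SCC154 were 245, 377, 401, 295 and 312 CPM in non-hypoxic and 267, 338, 275 and 263 CPM in post-hypoxic cells. Every SCC154 library was above every FaDu library, while the fractions of each line overlapped. Among non-hypoxic cells ITGA3 was 2.91-fold higher in SCC154, at 326 ± 63.0 CPM (SD, n = 5) against 112 ± 10.3 CPM (SD, n = 4), with a log2 fold change of 1.54 (SE 0.14, adjusted p = 9.99e-10 by edgeR).

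ITGAV, the alphaV chain, lies on chromosome 2 from 186590065 to 186680901 (plus strand). Non-hypoxic FaDu gave 25.7, 22.2, 25.5 and 22.1 CPM and post-hypoxic FaDu 26.2, 29.0, 22.7, 23.9 and 33.9 CPM. Non-hypoxic SCC154 gave 76.0, 69.6, 61.0, 62.5 and 63.4 CPM and post-hypoxic SCC154 65.5, 63.3, 45.5 and 59.0 CPM. The lowest SCC154 library, post-hypoxic replicate 4, was still above the highest FaDu library. The non-hypoxic means of 23.9 ± 1.97 (SD, n = 4) and 66.5 ± 6.26 CPM (SD, n = 5) differed 2.79-fold (log2 fold change 1.48, SE 0.15, adjusted p = 5.10e-09 by edgeR). The last kilobase of the gene overlaps an antisense gene, AC017101.1, and since the strand setting of the counting is not given in the sources used here, tags of this pair could not be told apart.

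ITGA5, the alpha5 chain of the classical fibronectin receptor, lies on chromosome 12 from 54395261 to 54419460 (minus strand). It had 0 to 6 counts per library, 13 over non-hypoxic FaDu, 18 over post-hypoxic FaDu, 21 over non-hypoxic SCC154 and 14 over post-hypoxic SCC154. The levels pooled over each group, with exact Poisson 95% intervals that cover counting error only, were 1.57 (0.838 to 2.69), 1.65 (0.978 to 2.61), 1.99 (1.23 to 3.04) and 1.60 CPM (0.874 to 2.68). All 4 intervals overlapped, and no difference in ITGA5 was detectable at this depth. It did not pass the filter on low counts, and without that filter its log2 fold changes ran from -0.39 to 0.33 over the comparisons, none of them called. Its last kilobase also overlaps antisense genes.

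ITGB1 lies on chromosome 10, from 32900319 to 33005792 (minus strand), and encodes the beta chain shared by the collagen, laminin and fibronectin receptors above. Its levels were 279, 238, 236 and 245 CPM in non-hypoxic FaDu and 301, 243, 225, 250.1 and 214 CPM in post-hypoxic FaDu. In SCC154 they were 313, 323, 266, 244 and 244 CPM in non-hypoxic cells and 190, 235, 139 and 231 CPM in post-hypoxic cells. The post-hypoxic SCC154 libraries all lay below the non-hypoxic ones, by a small margin between the highest of the first (235 CPM) and the lowest of the second (244 CPM), while the FaDu fractions overlapped. ITGB1 has a processed copy, ITGB1P1, listed separately in the table, and how reads that match both were counted is not given in the sources used here.

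ITGB3, a beta chain best known from platelets and endothelium, which pairs with alphaV in a vitronectin receptor, lies on chromosome 17 from 47253846 to 47311816 (plus strand). It had 1 count in all 18 libraries, in non-hypoxic FaDu replicate 3. A count of 0 allows up to 0.275 CPM in post-hypoxic FaDu, 0.284 CPM in non-hypoxic SCC154 and 0.342 CPM in post-hypoxic SCC154 (3 counts over the libraries of the group). ITGB3 was therefore not detected in 3 of the 4 groups, and no fold change is given. The last kilobase of ITGB3 overlaps a protein-coding gene on the same strand, AC068234.1, and an antisense gene, THCAT158. How tags lying in overlapping genes were assigned is unknown. The limits above thus apply to tags counted for ITGB3, and the transcript itself could be higher.

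ITGB5, the beta chain of another vitronectin receptor, lies on chromosome 3 from 124761948 to 124901418 (minus strand). It was found at 20.4, 34.4, 39.4 and 43.1 CPM in non-hypoxic FaDu and at 28.9, 18.4, 34.5, 37.1 and 21.1 CPM in post-hypoxic FaDu. SCC154 gave 13.3, 7.73, 3.45, 10.8 and 7.46 CPM in non-hypoxic and 6.14, 4.77, 17.2 and 8.62 CPM in post-hypoxic cells. Every FaDu library was above every SCC154 library, with a narrow gap between post-hypoxic SCC154 replicate 4 and post-hypoxic FaDu replicate 2, and the libraries of each group spread over about the same range in both fractions. Non-hypoxic means were 34.4 ± 9.94 CPM (SD, n = 4) in FaDu and 8.56 ± 3.74 CPM (SD, n = 5) in SCC154, 4.01-fold apart (log2 fold change -1.97, SE 0.32, adjusted p = 8.33e-06 by edgeR).

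ITGB6, on chromosome 2 from 160099666 to 160200313 (minus strand), is the epithelial beta chain that pairs with alphaV alone. Its levels were 19.5, 23.1, 14.0 and 20.5 CPM in non-hypoxic FaDu and 15.8, 26.2, 21.3, 30.5 and 27.7 CPM in post-hypoxic FaDu. In SCC154 they were 8.39, 3.87, 2.30, 6.94 and 6.22 CPM, or 4 to 17 counts, in non-hypoxic cells and 11.9, 15.5, 11.9 and 6.35 CPM, or 14 to 29 counts, in post-hypoxic cells. Replicates 2, 3 and 4 of post-hypoxic SCC154 were above all non-hypoxic SCC154 libraries, whereas replicate 5 fell among them. The non-hypoxic lines did not overlap, at 19.3 ± 3.83 CPM (SD, n = 4) in FaDu and 5.54 ± 2.44 CPM (SD, n = 5) in SCC154, a 3.47-fold difference (log2 fold change -1.76, SE 0.29, adjusted p = 8.86e-06 by edgeR).

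ITGB8, on chromosome 7 from 20330702 to 20415754 (plus strand), encodes a beta chain that binds latent TGF-beta with alphaV and lacks the usual link to talin. It was measured at 40.4, 47.9, 31.0 and 29.1 CPM in non-hypoxic FaDu and at 42.0, 43.3, 38.1, 40.5 and 46.6 CPM in post-hypoxic FaDu. SCC154 gave 64.7, 36.7, 35.7, 35.1 and 34.0 CPM in non-hypoxic and 39.7, 48.9, 39.8 and 35.9 CPM in post-hypoxic cells. All 4 groups overlapped, and non-hypoxic SCC154 replicate 1 was the highest library by a wide margin.

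The order of the groups by mean level followed the line for 5 members. ITGA2, ITGA3 and ITGAV descended from non-hypoxic SCC154 through post-hypoxic SCC154 and post-hypoxic FaDu to non-hypoxic FaDu, and the fractions next to each other within a line overlapped. For ITGB6 the order was post-hypoxic FaDu, non-hypoxic FaDu, post-hypoxic SCC154 and non-hypoxic SCC154, and for ITGB5 it was non-hypoxic FaDu, post-hypoxic FaDu, post-hypoxic SCC154 and non-hypoxic SCC154; again the fractions of a line overlapped. For ITGB1, non-hypoxic SCC154, non-hypoxic FaDu and post-hypoxic FaDu (278, 249 and 247 CPM) overlapped, and post-hypoxic SCC154 came last at 199 CPM. The ITGB8 means lay between 37.1 and 42.1 CPM, and no neighbours in their order differed beyond their spread.

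In SCC154, post-hypoxic cells had less ITGB1 and more ITGB6 on average than non-hypoxic cells, and neither difference passed edgeR's quasi-likelihood test after Benjamini-Hochberg adjustment. The ITGB1 mean was 278 ± 37.8 CPM (SD, n = 5) in non-hypoxic and 199 ± 44.4 CPM (SD, n = 4) in post-hypoxic cells, 1.40-fold apart, with a log2 fold change of -0.49 (SE 0.14, adjusted p = 0.0914 by edgeR). The ITGB6 mean was 5.54 ± 2.44 CPM (SD, n = 5) against 11.4 ± 3.78 CPM (SD, n = 4), 2.06-fold apart, with a log2 fold change of 0.99 (SE 0.31, adjusted p = 0.124 by edgeR). These were the only members with an unadjusted p under 0.05. By rank among the 12291 tested genes, ordered by p, ITGB1 was at 212 and ITGB6 at 376.

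The other members differed less between the SCC154 fractions. The log2 fold change was -0.20 (SE 0.19, adjusted p = 0.640 by edgeR) for ITGA2, -0.19 (SE 0.13, adjusted p = 0.503) for ITGA3 and -0.19 (SE 0.13, adjusted p = 0.508) for ITGAV. It was 0.12 (SE 0.37, adjusted p = 0.912) for ITGB5 and -0.01 (SE 0.18, adjusted p = 0.995) for ITGB8, and the sign of both turned when single libraries were left out. Thus 0 of 7 tested members were called in SCC154 in the main fit, where 0.757% of all tested genes (93 of 12291) were called. DESeq2 and limma voom also called 0 members. With same-numbered libraries matched in a blocked fit, edgeR called 3 members. They were ITGA3 (adjusted p = 0.0408), ITGB1 (adjusted p = 0.00588) and ITGB6 (adjusted p = 0.0220). That fit called 1052 of 12291 genes. Same-numbered fractions correlated at 0.029, 0.292, 0.398 and 0.144, and were not taken as pairs because the first was under 0.1. The count of 0 thus depended in part on leaving these libraries unmatched. In the main fit the members' median log2 fold change was -0.19, beside 0 over all genes, with 5 members below 0 and 2 above. Of the members, ITGB1 had fractions that did not overlap, as did 5.55% of all tested genes.

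For ITGB1 and ITGB6 the call at 0.05 depended on the setting, in more settings than those given here. Without the filter on low counts, ITGB1 (adjusted p = 0.0181 by edgeR) and ITGB6 (adjusted p = 0.0452) were called. Leaving out post-hypoxic SCC154 replicate 3 gave ITGB1 a log2 fold change of -0.57 (adjusted p = 0.0477), and leaving out its replicate 5 gave ITGB6 one of 1.19 (adjusted p = 0.0473). Without non-hypoxic SCC154 replicate 1 and post-hypoxic SCC154 replicate 3 together, 0 members were called.

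In FaDu, 0 of 7 members were called, as were 0% of all 12291 genes by edgeR; 298 genes and 0 members had an unadjusted p under 0.05. DESeq2 called 3 genes and limma voom 0, none of them a member. With the replicate number as a block, which paired the FaDu fractions, 7 genes and 0 members were called. ITGB6 had the largest log2 fold change, 0.34 (SE 0.24, adjusted p = 1 by edgeR), with means of 19.3 ± 3.83 CPM (SD, n = 4) in non-hypoxic and 24.3 ± 5.82 CPM (SD, n = 5) in post-hypoxic cells. It was -0.29 (SE 0.28) for ITGB5, 0.19 (SE 0.15) for ITGAV and 0.17 (SE 0.18) for ITGB8, each with an adjusted p of 1 by edgeR. ITGA2 (0.05), ITGA3 (0.05) and ITGB1 (-0.02) were nearer to 0. The fractions of FaDu overlapped for all 7 tested members, and 1.07% of all tested genes had fractions that did not overlap.

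Whether the difference between fractions itself differed between the lines was tested as an interaction, which called 0 of 7 members and 0.0163% of all genes (2 of 12291). ITGB1 had an interaction of -0.47 on the log2 scale (SE 0.19, adjusted p = 0.438 by edgeR) and was the 1 member with an unadjusted p under 0.05. The value for ITGB6 was 0.65 (SE 0.39, adjusted p = 0.598) and that for ITGAV -0.38 (SE 0.20, adjusted p = 0.551). The lower ITGB1 of post-hypoxic SCC154 was therefore not shown to be particular to that line. DESeq2 and limma voom called 0 members in this comparison too.

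**Figure D2:**
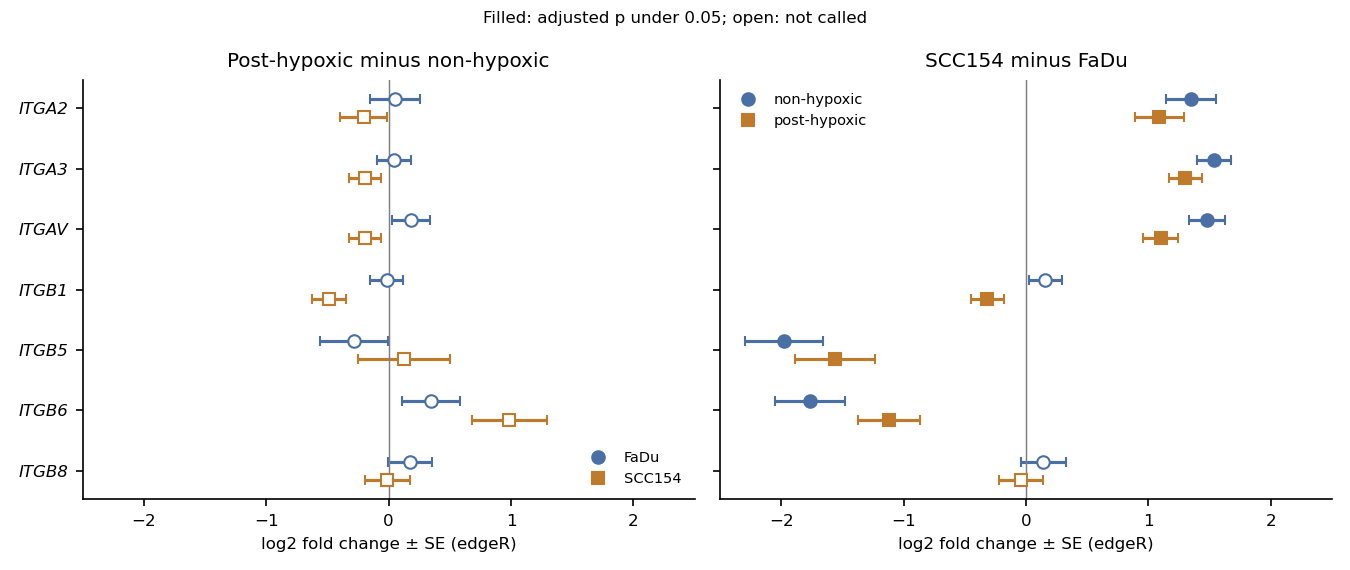
Log2 fold change with its SE (x axis) of the 7 tested integrin subunits (y axis) from edgeR's quasi-likelihood fit, for post-hypoxic minus non-hypoxic cells of each line on the left and SCC154 minus FaDu in each fraction on the right; filled symbols have an adjusted p under 0.05. All 14 symbols on the left are open, while 5 members in non-hypoxic and 6 in post-hypoxic cells are filled on the right.

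Between the lines, the 3 tested alpha subunits differed one way, and 2 of the 4 tested beta subunits, ITGB5 and ITGB6, the other. In non-hypoxic cells 5 of 7 members were called, beside 68.9% of all tested genes. ITGA2, ITGA3 and ITGAV were higher in SCC154 (3 members, beside 34.5% of genes called higher), and ITGB5 and ITGB6 lower (2 members, beside 34.5% called lower). ITGB1 (log2 fold change 0.16, SE 0.14, adjusted p = 0.307 by edgeR) and ITGB8 (0.14, SE 0.18, adjusted p = 0.505) were not called. The members' share of calls was near that of all genes, and their median log2 fold change was 0.16, beside -0.01 over all genes. The lines did not overlap for the 5 called members, as for 56.5% of all genes.

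In post-hypoxic cells 6 of 7 members were called, beside 69.7% of all genes. ITGA2 (log2 fold change 1.09, SE 0.20, adjusted p = 3.56e-05 by edgeR), ITGA3 (1.30, SE 0.13, adjusted p = 8.09e-09) and ITGAV (1.099, SE 0.14, adjusted p = 2.70e-07) were again higher in SCC154, beside 34.8% of all genes. ITGB5 (-1.56, SE 0.33, adjusted p = 0.000181) and ITGB6 (-1.12, SE 0.25, adjusted p = 0.000452) were again lower, beside 34.9% of all genes. ITGB1 was also called lower in SCC154 (-0.32, SE 0.14, adjusted p = 0.0434), with means of 199 ± 44.4 CPM (SD, n = 4) and 247 ± 33.7 CPM (SD, n = 5) that overlapped by library. ITGB8 was not called (-0.04, SE 0.18, adjusted p = 0.844).

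The ITGB1 call was not stable. It was lost in 5 of 7 other settings and in 10 of the 18 fits that left out 1 library. Its log2 fold change then ran from -0.40 to -0.16, and the adjusted p rose to 0.253 without post-hypoxic SCC154 replicate 4, 0.130 without post-hypoxic FaDu replicate 1 and 0.104 without post-hypoxic SCC154 replicate 2. Without replicate 1 of both FaDu fractions it was 0.122. The other 5 calls held in every setting run, in both fractions. The lines did not overlap for 4 members in post-hypoxic cells, ITGA3, ITGAV, ITGB5 and ITGB6, as for 57.3% of all genes.

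The make-up of the beta subunit tags was described within each library, as each beta gene's share of all ITGB1, ITGB3, ITGB5, ITGB6 and ITGB8 tags, a quantity not scaled by length since a 3′ tag is counted once per transcript end. ITGB1 made up 73.2 ± 3.43% (SD, n = 4) of these tags in non-hypoxic FaDu, 72.1 ± 3.51% (SD, n = 5) in post-hypoxic FaDu, 83.5 ± 3.50% (SD, n = 5) in non-hypoxic SCC154 and 75.7 ± 6.31% (SD, n = 4) in post-hypoxic SCC154. The ITGB6 share was 5.65 ± 1.01%, 7.23 ± 1.96%, 1.67 ± 0.722% and 4.47 ± 1.52% in the same groups. For ITGB6 the fractions of SCC154 overlapped, between 0.749% and 2.34% in non-hypoxic cells and between 2.25% and 5.71% in post-hypoxic cells. The ITGB5 share was 10.2 ± 3.24%, 8.20 ± 2.29%, 2.55 ± 1.01% and 3.85 ± 3.01%. The ITGB8 share was 10.9 ± 2.32%, 12.4 ± 1.69%, 12.2 ± 2.34% and 16.0 ± 2.60%. These shares rest on 508 to 868 beta tags per library, and no test was made of them.

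Among the tags of beta subunits other than ITGB1, ITGB8 made up most in SCC154. In post-hypoxic FaDu ITGB8 had the largest share in every library, followed by ITGB6 in replicates 2 and 5 and by ITGB5 in the others. In non-hypoxic FaDu ITGB8 led ITGB5 by mean only, since ITGB5 was ahead of it in replicates 3 and 4. It made up 74.9 ± 7.28% (SD, n = 5) of ITGB3, ITGB5, ITGB6 and ITGB8 tags in non-hypoxic SCC154 and 66.9 ± 6.19% (SD, n = 4) in post-hypoxic SCC154. In FaDu it made up 40.9 ± 8.54% (SD, n = 4) in non-hypoxic and 44.9 ± 5.51% (SD, n = 5) in post-hypoxic cells, where ITGB5 held 37.8 ± 10.5% and 29.5 ± 7.38%. The ratio of ITGAV tags to those of ITGB5, ITGB6 and ITGB8 together was 0.268 ± 0.0515 in non-hypoxic FaDu, 0.290 ± 0.0570 in post-hypoxic FaDu, 1.26 ± 0.241 in non-hypoxic SCC154 and 0.968 ± 0.233 in post-hypoxic SCC154. The alpha tags of ITGA2, ITGA3, ITGA5 and ITGAV together stood at 0.856 ± 0.0741, 0.913 ± 0.135, 2.14 ± 0.381 and 2.64 ± 0.467 per ITGB1 tag in these groups. Both ratios were higher in every SCC154 library than in any FaDu library. They are ratios of transcript tags, and the amount of receptor on the cell surface was not measured.

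**Figure D3:**
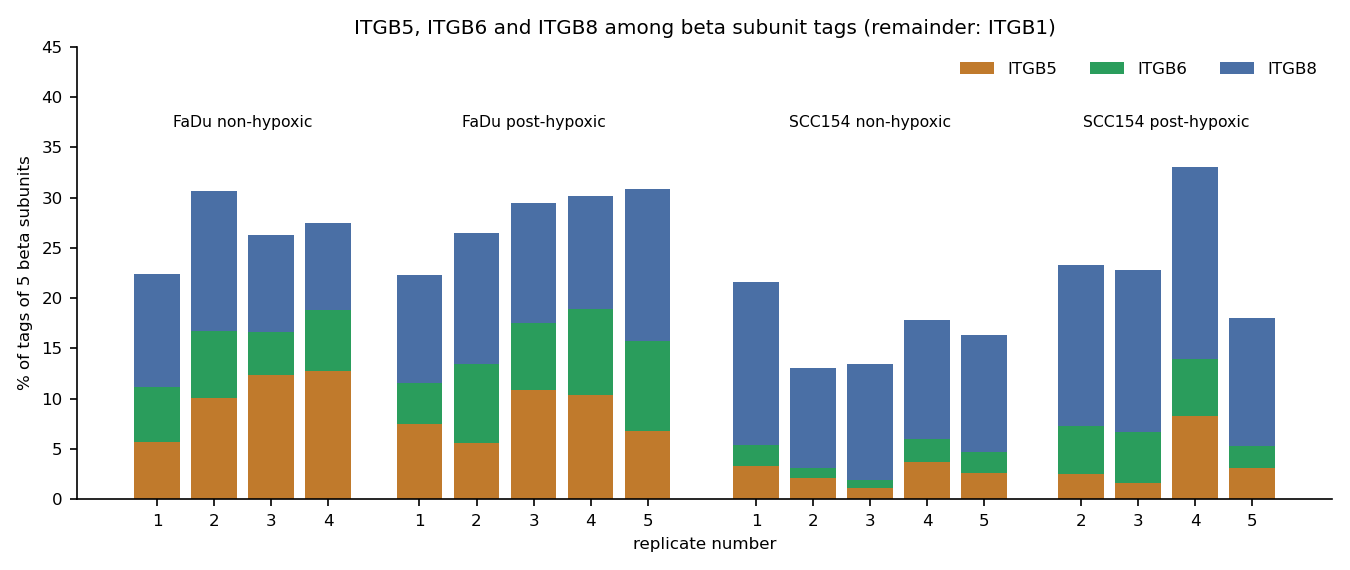
Share of ITGB5, ITGB6 and ITGB8 among the tags of 5 beta subunits (y axis, percent, stacked) in each library (x axis, replicate number within the 4 groups); the remainder up to 100% is ITGB1, with ITGB3 at 1 count in all. In non-hypoxic SCC154 the ITGB6 band stays at or below 2.34%, and the post-hypoxic SCC154 bar of replicate 4 is the tallest.

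The members moved together only in part once the mean of each group was taken out. Over the 18 libraries, Pearson's r of log2 CPM was 0.62 between ITGA2 and ITGB1, 0.58 between ITGA2 and ITGA3, 0.52 between ITGB6 and ITGB8 and -0.65 between ITGA3 and ITGB5. These are descriptions, since the values share libraries and library depth. Among 9666 genes with a mean of at least 10 CPM, the ones most like each member were picked out. The highest of so many values is high by selection alone, so it is no measure against the few members. Those most alike included SMG1 (0.92) and TLE5 (0.90) for ITGA2, ZSWIM8 (0.85) for ITGA3, and SLC44A1 (0.85) and LIFR (0.83) for ITGAV. For the beta subunits they were DZIP1 (0.92) and NSD1 (0.92) for ITGB1, TUBB6 (0.94) and VPS18 (0.89) for ITGB5, HSD17B1 (0.83) and PYCARD (0.80) for ITGB6, and RAP2B (0.91) and SEPTIN8 (0.89) for ITGB8. The member most like ITGB6 was ITGB8, at rank 188 of these genes, and the member most like ITGB1 was ITGA2, at rank 751.

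The tested genes among the remaining integrin subunits, and most tested ligands, were higher in SCC154. Of 17 other integrin subunits, 6 were tested and all 6 were called higher in non-hypoxic SCC154 (median log2 fold change 1.84), beside 34.5% of all genes. Among them, ITGA1, ITGA2B and ITGB2 had means of 0.840, 1.49 and 1.83 CPM in non-hypoxic FaDu. Their means in non-hypoxic SCC154 were 5.10, 4.90 and 12.2 CPM. They passed the filter on low counts only through SCC154, so their direction was largely fixed by the filter. ITGA6, the alpha chain shared by hemidesmosomes and a laminin receptor with beta1, stood at 180 ± 17.5 CPM (SD, n = 4) in FaDu and 709 ± 45.8 CPM (SD, n = 5) in SCC154 (log2 fold change 1.98, SE 0.10, adjusted p = 4.30e-14 by edgeR). ITGB4, its hemidesmosome partner, stood at 340 ± 20.5 and 669 ± 127 CPM (log2 fold change 0.98, SE 0.13, adjusted p = 3.41e-07 by edgeR). Of the ligands, 25 of 38 were tested, 21 called higher and 3 lower (median 1.71, the same with genes at 0 in 1 group put at their floor of 3 counts). Over all genes, 34.5% were called each way. Some ligands, such as LAMA4, NPNT, EDIL3 and L1CAM, passed the filter only through SCC154, and others, such as FBN2 and NID1, only through FaDu.

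FN1, which encodes fibronectin, the ligand of the alpha5 and alphaV receptors, had 4.53 ± 1.69 CPM in non-hypoxic FaDu (SD, n = 4) and 105 ± 13.3 CPM in non-hypoxic SCC154 (SD, n = 5), 23.1-fold apart. CCN2, a matricellular ligand, differed 28.7-fold in the same direction, from 3.16 ± 0.612 to 90.6 ± 8.90 CPM. FN1 and CCN2 had 37 and 26 counts over non-hypoxic FaDu and passed the filter on low counts only through SCC154. Their direction was thus largely fixed by the filter. The ligands at the other end were the microfibril protein FBN2 and the basement membrane linker NID1. They had 22.4 ± 2.56 and 23.2 ± 7.36 CPM in non-hypoxic FaDu (SD, n = 4) and no count in non-hypoxic SCC154, at least 78.7-fold and 81.5-fold lower there against a floor of 3 counts over the group.

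Genes of the latent TGF-beta complex, which alphaV receptors with beta6 or beta8 bind, gave 4 called higher and 1 lower of 6 tested (median 3.09). Over all genes, 34.5% were called each way. TGFB1, TGFB2 and LTBP4 passed the filter on low counts only through SCC154, so their direction was largely fixed by the filter. The latent TGF-beta binding protein LTBP1 stood at 5.81 ± 2.25 CPM in non-hypoxic FaDu (SD, n = 4) and at 70.0 ± 22.7 CPM in non-hypoxic SCC154 (SD, n = 5), and LTBP4 at 2.52 ± 0.899 and 26.3 ± 7.12 CPM. LTBP3 was lower in SCC154, at 65.6 ± 6.39 CPM against 116 ± 16.9 CPM (log2 fold change -0.83, SE 0.14, adjusted p = 1.20e-05 by edgeR).

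Genes of adhesion plaques, signalling and traffic, and the surface and cytoplasmic partners of integrins, went both ways between the lines. Of 25 tested genes of talin, kindlin and the adhesion plaque, 8 were called higher and 10 lower in non-hypoxic SCC154 (median log2 fold change -0.14). Of 25 adhesion kinases and scaffolds, 10 were higher and 7 lower (median 0.11). Of 17 inactivators and binding partners, 5 were higher and 5 lower (median -0.25), and of 21 genes of integrin traffic, 5 were higher and 7 lower (median -0.14). Over all tested genes 34.5% were called higher and 34.5% lower, with a median of -0.01, so going both ways is not particular to these lists.

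Within the adhesion plaque list, the paxillin relative TGFB1I1 (5.45-fold) and the talin-binding KANK2 (3.92-fold) were furthest above their FaDu level in non-hypoxic SCC154 among genes with a mean of at least 10 CPM. The liprin PPFIA1 was furthest below it, with 1869 ± 142 CPM in FaDu (SD, n = 4) and 276 ± 13.3 CPM in SCC154 (SD, n = 5), followed by the actin regulator ENAH (2.38-fold). Of the kinases and scaffolds, the Src-family kinase FYN was 8.45-fold and the docking protein NEDD9 6.27-fold higher in SCC154. The Src-family kinase YES1 was 3.67-fold lower there, and PARVB, a partner of integrin-linked kinase, was found at 73.0 ± 10.5 CPM in FaDu (SD, n = 4) and at 0.791 ± 0.769 CPM in SCC154 (SD, n = 5). NEDD9 passed the filter on low counts only through SCC154 and PARVB only through FaDu, so the direction of both was largely fixed by the filter.

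Among the partners, the urokinase receptor PLAUR, which associates with integrins at the surface, was 12.8-fold higher in SCC154. The list also held FILIP1L, whose link to integrins was not tested here. It differed 83.0-fold, with 0.965 ± 0.351 CPM, or 8 counts, in non-hypoxic FaDu (SD, n = 4). FILIP1L passed the filter on low counts only through SCC154, so its direction was largely fixed by the filter. CIB1, a calcium-binding protein of integrin tails, was 8.25-fold lower in SCC154. The tetraspanin CD9 was called lower (log2 fold change -0.94, SE 0.40, adjusted p = 0.0432 by edgeR), but its lines overlapped, and without non-hypoxic FaDu replicate 4 the value was -0.44 (adjusted p = 0.345). In all, 10 of the settings run lost this call. In traffic, the clathrin adaptor DAB2 (10.8-fold) and RAB11FIP1, an effector of recycling (4.67-fold), were higher in SCC154. DAB2 had 17 counts over non-hypoxic FaDu and passed the filter only through SCC154, which largely fixed its direction. The clathrin heavy chain CLTC (2.35-fold) and the fast-recycling GTPase RAB4A (2.09-fold) were lower.

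**Figure D4:**
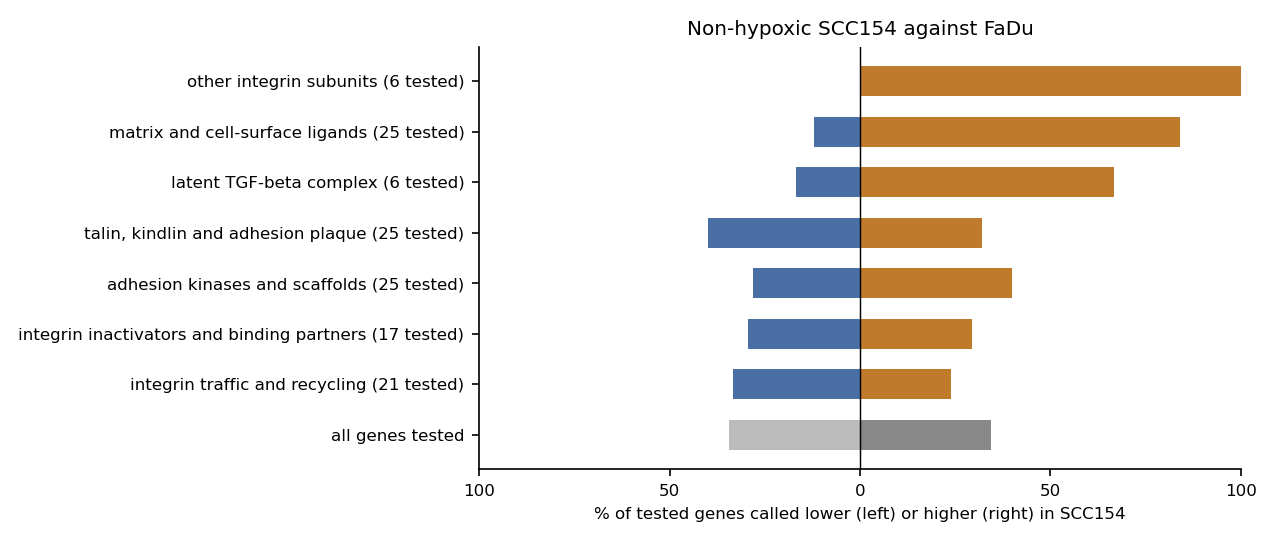
Percent of tested genes called lower (left, blue) or higher (right, orange) in non-hypoxic SCC154 than in non-hypoxic FaDu (x axis, adjusted p under 0.05 by edgeR) for 7 lists of integrin-related genes (y axis, with the number tested), beside all genes tested in grey. All 6 tested other integrin subunits and 21 of 25 ligands lie on the right, while the 4 lists of plaque, signalling, partner and traffic genes divide between both sides. Some subunits and ligands passed the filter on low counts only through SCC154.

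Within the lines the same lists held 2 called genes, both in SCC154. They were 1 of 25 tested ligands and 1 of 25 tested kinases and scaffolds, beside 0.757% of all tested genes (93 of 12291). The adhesion molecule L1CAM, which binds RGD-recognising integrins, had 6.91, 8.70, 10.4, 9.98 and 9.95 CPM in non-hypoxic SCC154 and 2.46, 2.39, 2.87 and 1.36 CPM in post-hypoxic SCC154. Its fractions did not overlap, and its log2 fold change was -1.98 (SE 0.40, adjusted p = 0.0220 by edgeR) on 97 and 20 counts. The phosphatase PTPN11 (SHP2), which acts in integrin and growth factor signalling, had 249, 246, 251, 264 and 265 CPM in non-hypoxic and 175, 195, 141 and 222 CPM in post-hypoxic SCC154. Its fractions did not overlap either, and its log2 fold change was -0.48 (SE 0.11, adjusted p = 0.0376 by edgeR). Over all tested genes, 5.55% had SCC154 fractions that did not overlap.

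Both of these calls were lost in some settings. The adjusted p of L1CAM rose to 0.0740 by edgeR without post-hypoxic SCC154 replicate 2, and passed 0.05 in 5 of the 18 fits that left out 1 library. That of PTPN11 rose to 0.160 without post-hypoxic SCC154 replicate 4, passed 0.05 in 10 of those 18 fits, was 0.120 with the compared groups alone, was 0.0566 with upper-quartile factors and was 0.0586 without the pair of SCC154 libraries named above as standing apart. No list gene was called in FaDu or in the interaction, where 0% and 0.0163% of all tested genes were called. Of the latent TGF-beta genes, 5 of 6 had a log2 fold change below 0 in SCC154, as did 6066 of all 12291 tested genes. In FaDu 5 of 6 had one above 0, as did 5963 of all 12291. Of these genes 0 were called in either line, and TGFB1, TGFB2 and LTBP4 had means of at most 2.86 CPM in the FaDu fractions.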

How the data were processed

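The authors deposited 1 table of whole-number counts of 3′ tags (QuantSeq) per gene symbol, with 41120 symbols and 18 libraries. Per the submitters' processing notes, reads were handled with HISAT2 2.2.1 on the hg38 build, featureCounts 1.5.1, UMI-tools 1.1.5, Trimmomatic 0.39, FastQC 0.11.9 and DESeq2. The order of these tools, what UMI-tools was used for and the strand setting are, for this table, not given in the sources used here. Groups and replicate numbers came from the titles, columns were matched by library name, and 0 columns lacked a sample. Nothing says that replicates were separate cultures, so the p-values reflect the spread of these libraries alone, and that spread may be technical.

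The counts were tested with edgeR 4.0.16 (R 4.3.3): TMM factors, filterByExpr (12291 of the 22591 symbols with a count passed), 1 quasi-likelihood fit with 4 group means (14 residual degrees of freedom, common biological coefficient of variation 0.148) and Benjamini-Hochberg adjustment over all tested genes at 0.05. The SE is the size of the log2 fold change over the square root of F. The fit was tested on simulated data. Other settings used limma 3.58.1 and DESeq2 1.42.0, other factors, no filter, a replicate block, the compared groups alone and each library left out. Correlations used log2 CPM with a prior count of 2.

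The members and the 11 gene lists were chosen with earlier results of these data known. Named were all members, up to 3 called genes per list within lines, up to 2 per direction and list between non-hypoxic lines (mean CPM of 10 or more), and the 2 genes most like each member, of which 1 is not reported here. The deviations of FaDu libraries from their group means correlated between same-numbered fractions in every pair (r of 0.447, 0.178, 0.208 and 0.438), so those numbers were taken as pairs; with them as a replicate block, 0 members were called in FaDu.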

Additional observations from a re-analysis of the deposited data

Results flagged for a closer look

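In 33 groups of 4 or 5 libraries, 1 library stood far from the others of its group in 4 cases; for measured levels chance gives about 1 in 20 groups. ITGA2 was at 107.9 CPM in post-hypoxic FaDu replicate 1, with the other 4 libraries between 68.1 and 76.4 CPM. ITGA3 was at 338.3 CPM in post-hypoxic SCC154 replicate 3, with the others between 263 and 275 CPM. ITGB8 was at 64.66 CPM in non-hypoxic SCC154 replicate 1, with the others between 34.0 and 36.7 CPM. ITGB3 was at 0.4992 CPM in non-hypoxic FaDu replicate 3, which is 1 count, with the others at 0; a lone count is always set apart in this way, so this case says nothing beyond that count.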

How the results depend on the processing

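The number of members called was 0 in FaDu and in the interaction and 5 between the non-hypoxic lines in every setting, and 5 or 6 between the post-hypoxic lines. In SCC154 it rose from 0 to 2 without the filter on low counts, where 22591 genes were tested, and to 3 with a replicate block within each line; over fits without 1 library it ran from 0 to 1, and the cause was not tested. With that block ITGA3 was at -0.27 (adjusted p = 0.0408 by edgeR), ITGB1 at -0.46 (adjusted p = 0.00588) and ITGB6 at 1.14 (adjusted p = 0.0220); the same-numbered SCC154 fractions correlated at 0.029, 0.292, 0.398 and 0.144, and since 1 of these is under 0.1 the numbers were not taken as pairs, although ITGB1 and ITGA3 were lower and ITGB6 and ITGB8 higher in all 4 same-numbered pairs and the 4 libraries numbered 4 lay together on the first component. The count over all genes in SCC154 went from 93 to 22 with the compared groups alone, to 207 with DESeq2, 291 without the filter and 1052 with the block, and from 20 to 190 without 1 library. Among uncalled log2 fold changes the sign turned for 5 members. In SCC154 that of ITGB8 was 0.011 with upper-quartile factors, 0.025 with limma voom, 0.20 with the block, 0.127 without the pair of SCC154 libraries that stood apart (a setting added after seeing the data), and from -0.096 to 0.215 without 1 library; that of ITGB5 ran from -0.374 to 0.326 without 1 library and was 0.501 without that pair. In FaDu, with the block, ITGA3 was at -0.019 and ITGB1 at 0.028, and without 1 library ITGA2 ran from -0.079 to 0.187, ITGA3 from -0.015 to 0.119 and ITGB1 from -0.096 to 0.045. In the interaction ITGB8 was at 0.050 with the block and from -0.329 to 0.043 without 1 library, and ITGB5 from -0.087 to 0.613, or 0.787 without the pair. Between the non-hypoxic lines ITGB8 ran from -0.075 to 0.292 without 1 library and was at -0.074 without the pair; between the post-hypoxic lines it was at 0.024 with a replicate block across groups and from -0.128 to 0.026 without 1 library. Depth limits ITGA5, ITGB3 and, in SCC154, ITGB6 and ITGB5, whose lowest libraries held 4 and 6 counts.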
